A study of Mus musculus with 5 samples.

Results

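The genes described here move and use the amino acid arginine: the transporter gene Slc7a2, the arginase genes Arg1 and Arg2, the inducible nitric oxide synthase gene Nos2, the arginine-making Ass1, the ornithine-using Oat and Odc1, and the polyamine genes Srm, Sms and Sat1. They were chosen by name: a gene entered if a probe was annotated to it alone and 4 or 5 of the arrays gave it a value. All 10 had 1 probe each and met this condition, as did 9727 genes in all of the 13410 named on the array. Lung RNA from 5 C3H mice that had been given the egg-white allergen ovalbumin, first to sensitise and then to challenge them (ova mice 1 to 5), was hybridised mouse by mouse on 2-colour arrays against a pool of lung RNA from control C3H mice. C3H is an inbred mouse strain, RNA of both kinds was amplified, and the labels name no other treatment, gene alteration, age or sex. The sources used here do not give the size of the pool, the dyes or the days of treatment. Every value below is a log ratio between an ova mouse and that pool, taken as log2 and centred on the median of its array. The labels do not say which sample is the numerator. A gene is therefore described by its side, negative (below 0) or positive (above 0). The array of mouse 1 stood apart: the SD of its log ratios across probes was 0.20, against 0.32 to 0.38 on the other 4. A list of other genes induced in allergic airways had 7 members tested (Clca1, Retnla, Muc5ac, Rnase2a, Ccl11, Tff2 and Slc26a4), and all 7 passed with ratios below 0. Of all genes tested, 15.0% passed below 0 and 12.3% above. This list was chosen with earlier results of these arrays known, so its count is a description.

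Arginine enters macrophages and other cells through cationic amino acid transporters. Arginase splits it into urea and ornithine, while nitric oxide synthases turn it into nitric oxide and citrulline, which argininosuccinate synthase and lyase can convert back into arginine. Ornithine is the starting point of proline, by way of ornithine aminotransferase, and of the polyamines, by way of ornithine decarboxylase. In mouse lung, arginase 1 is a classical product of macrophages exposed to interleukin-4 and interleukin-13, and Nos2 a classical product of macrophages exposed to interferon-gamma and bacterial signals.

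Of the 10 genes, 5 (Arg1, Slc7a2, Ass1, Odc1 and Oat) differed from a log ratio of 0 on the negative side at an adjusted p under 0.05 and 0 did so on the positive side, in limma's moderated test adjusted over all 9727 genes. At an unadjusted p under 0.05 the counts were 6 and 0, and without moderation of the variances they were 3 and 0. Without mouse 1 they were 5 and 0. Over all genes tested, 15.0% passed with ratios below 0, 12.3% with ratios above 0 and 27.3% in either direction. At an unadjusted p under 0.05, 2115 of the 9727 genes were below 0 and 1781 above. Without moderation 329 passed below 0 and 287 above. Without mouse 1 the counts were 1429 and 1124 of 10000 genes. The median of the 10 mean log ratios was -0.19, against 0 for all genes. The 10 names are few and were put together with earlier results of these arrays known, so the share is a description. The same pool was used on all 5 arrays, so its own deviations enter each ratio, and the test measures the spread among ova mice only.

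**Figure D1:**
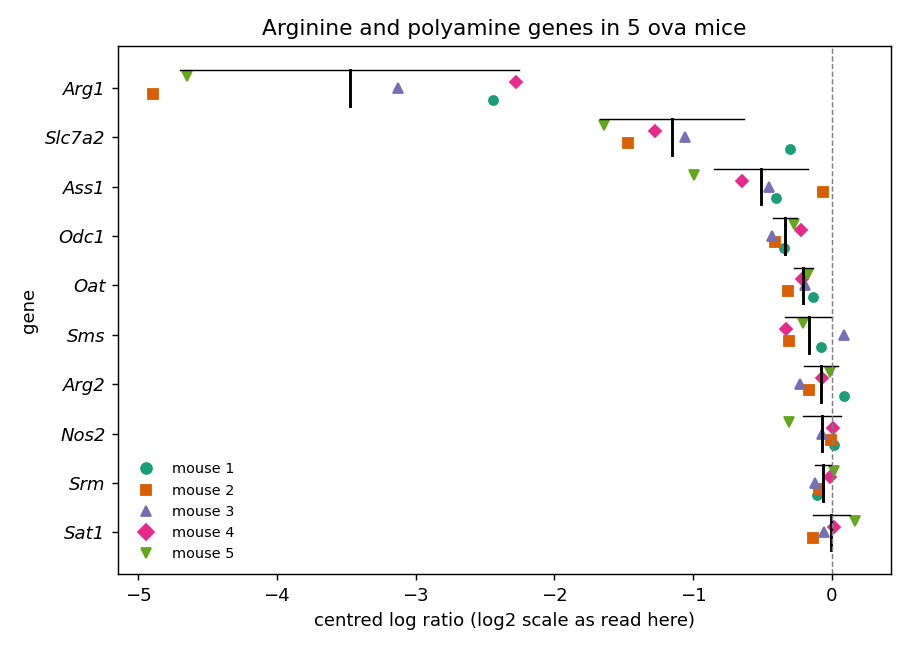
Centred log ratio (log2 scale, x axis) of each of the 10 genes (y axis), with 1 symbol per ova mouse, a vertical bar at the mean and a thin horizontal line for the mean ± SD. Arg1 lies furthest below 0 in every mouse, between -4.89 and -2.27, Slc7a2 comes next by its mean, and Arg2, Nos2, Srm and Sat1 scatter about 0.

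Arg1 (Entrez gene 11846), the cytosolic arginase, had log ratios of -2.44 in mouse 1, -4.89 in mouse 2, -3.13 in mouse 3, -2.27 in mouse 4 and -4.64 in mouse 5. All 5 mice were far below 0, with mice 2 and 5 about 2 units below mice 1 and 4. The mean was -3.48 ± 1.23 (SD, n = 5), with a 95% confidence interval from -4.38 to -2.57 and a limma adjusted p of 0.0013. If the log base is 2, this is an 11.1-fold difference (5.93 to 20.9). Only 4 of the 9727 genes had a more negative mean. On the single arrays Arg1 was between the 2nd and the 15th most negative gene.

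Slc7a2 (Entrez gene 11988) encodes the cationic amino acid transporter that brings arginine into macrophages. Its log ratios were -0.30, -1.47, -1.06, -1.28 and -1.64 in mice 1 to 5. Mouse 1 stood well above the other 4, at 0.222 of their mean of -1.36, on the array with the narrower spread of ratios. For Arg1 the value in mouse 1 was 0.655 of the mean of the others. The part of that spread in these values was not tested. Without mouse 1 the mean of Slc7a2 was -1.36 (limma adjusted p = 0.000141, 4 mice), and with the arrays scaled to the same spread it was -1.08 (adjusted p = 0.00107). The mean of Slc7a2 was -1.15 ± 0.52 (SD, n = 5; 95% confidence interval -1.54 to -0.75; limma adjusted p = 0.00317), which is 2.22-fold if the base is 2 (1.69 to 2.91). Its rank was the 83rd most negative of all genes. The call did not hold without moderation of the variances (adjusted p = 0.0624).

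The partner enzymes at the arginine branch point did not pass. Arg2 (Entrez gene 11847), the mitochondrial arginase, had 0.09, -0.16, -0.22, -0.07 and -0.01 in mice 1 to 5, a mean of -0.08 ± 0.12 (SD, n = 5). Its 95% confidence interval ran from -0.20 to 0.05 (limma adjusted p = 0.354). Nos2 (Entrez gene 18126), the inducible nitric oxide synthase, had 0.02, -0.00, -0.07, 0.01 and -0.31. Mice 1 to 4 lay close to 0 and mouse 5 lower; the mean was -0.07 ± 0.14 (SD, n = 5; 95% confidence interval -0.21 to 0.07; limma adjusted p = 0.413).

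Within each mouse, the ratio of Arg1 was then set against those of its partners. The difference between Arg1 and Arg2 was -3.40 ± 1.20 (SD, n = 5) and between -4.73 and -2.20 in single mice. That between Arg1 and Nos2 was -3.40 ± 1.16 and between -4.89 and -2.28. Both differences were below 0 in 5 of 5 mice, and the exact sign-flip permutation test (two-sided) gave p = 0.0625 for each, the smallest that 5 mice allow (0.0938 after Benjamini-Hochberg adjustment over the 3 differences tested). Arg2 and Nos2 lay between -0.31 and 0.09 in single mice, so both differences largely restate the ratios of Arg1. Slc7a1, the widely expressed relative of Slc7a2, had values in 3 mice only, -0.02, 0.04 and -0.19 in mice 1, 2 and 5. The difference between Slc7a2 and Slc7a1 was -0.28, -1.51 and -1.45 in these mice (mean -1.08 ± 0.69 SD, n = 3; exact sign-flip permutation p = 0.25, the smallest that 3 mice allow).

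Ass1 (Entrez gene 11898), argininosuccinate synthase, which remakes arginine from citrulline, had -0.40, -0.06, -0.45, -0.65 and -0.99 in mice 1 to 5. Mouse 2, the most negative for Arg1, was here the closest to 0. The mean was -0.51 ± 0.34 (SD, n = 5; 95% confidence interval -0.78 to -0.24; limma adjusted p = 0.015). The call did not hold without mouse 4 (adjusted p = 0.0508, mean -0.48, 4 mice) or without moderation (adjusted p = 0.104).

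Odc1 (Entrez gene 18263), ornithine decarboxylase, the first enzyme of polyamine synthesis, had -0.34, -0.41, -0.43, -0.22 and -0.27. The 5 mice lay close together, and mouse 1 was at 1.03 of the mean of the others. The mean was -0.33 ± 0.09 (SD, n = 5; 95% confidence interval -0.45 to -0.22; limma adjusted p = 0.00298). Oat (Entrez gene 18242), the mitochondrial ornithine aminotransferase that leads toward proline and glutamate, had -0.14, -0.32, -0.19, -0.21 and -0.17. All 5 mice were again below 0, by little. The mean was -0.21 ± 0.07 (SD, n = 5; 95% confidence interval -0.31 to -0.10; limma adjusted p = 0.0137). If the base is 2, Odc1 and Oat differed 1.26-fold (1.17 to 1.36) and 1.15-fold (1.07 to 1.24).

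The later steps of the polyamine pathway did not pass. Srm (Entrez gene 20810), spermidine synthase, had -0.10, -0.09, -0.12, -0.01 and 0.02 in mice 1 to 5 (mean -0.06 ± 0.06 SD; 95% confidence interval -0.16 to 0.04; limma adjusted p = 0.339). Sms (Entrez gene 20603), spermine synthase, had -0.08, -0.31, 0.09, -0.33 and -0.21, a mean of -0.17 ± 0.17 (SD, n = 5; 95% confidence interval -0.32 to -0.01; limma adjusted p = 0.108, unadjusted p = 0.0409). Mouse 3 was the only one above 0 for Sms, and without it Sms passed (mean -0.23, adjusted p = 0.0482, 4 mice). Sat1 (Entrez gene 20229), the acetyltransferase that starts polyamine breakdown and export, had no value in mouse 1 and -0.14, -0.06, 0.01 and 0.17 in mice 2 to 5. Its mean was -0.00 ± 0.13 (SD, n = 4; 95% confidence interval -0.15 to 0.15; limma adjusted p = 0.989), with 2 mice on each side of 0.

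Of the 10 genes, 5 had a start-site window in the RefSeq promoter table (assembly GRCm38.p6): Odc1, Ass1, Oat, Sms and Sat1. Arg1, Arg2, Slc7a2, Nos2 and Srm had none. The 250 bases before the start are shown for the 3 that passed on the negative side, Ass1 as an entry to arginine and Odc1 and Oat as the exits from ornithine. They are written 5′ to 3′ on the gene's strand, with motif letters in capitals. Ass1 lies at chr2:31470020-31470269 (+ strand), Odc1 at chr12:17544623-17544872 (+ strand) and Oat at chr7:132576399-132576648 (− strand).
Ass1: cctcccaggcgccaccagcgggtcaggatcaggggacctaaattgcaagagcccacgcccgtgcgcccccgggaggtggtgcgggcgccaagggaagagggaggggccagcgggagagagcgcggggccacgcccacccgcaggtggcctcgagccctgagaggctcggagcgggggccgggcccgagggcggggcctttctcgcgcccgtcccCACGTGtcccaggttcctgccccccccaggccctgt
Odc1: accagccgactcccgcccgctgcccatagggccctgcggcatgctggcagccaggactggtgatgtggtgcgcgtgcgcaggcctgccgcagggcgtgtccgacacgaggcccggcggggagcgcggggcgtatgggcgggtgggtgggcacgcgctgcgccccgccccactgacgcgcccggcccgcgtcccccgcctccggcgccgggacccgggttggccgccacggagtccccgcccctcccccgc
Oat: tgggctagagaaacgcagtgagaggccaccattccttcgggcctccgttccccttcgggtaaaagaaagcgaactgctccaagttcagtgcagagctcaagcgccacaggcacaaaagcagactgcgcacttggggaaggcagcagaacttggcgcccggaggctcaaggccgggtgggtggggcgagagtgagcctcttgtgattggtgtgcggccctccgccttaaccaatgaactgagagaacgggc
The motifs searched were the STAT6 site (TTC and GAA with 4 bases between), the site of other STAT proteins (TTCNNNGAA) and CACGTG (the E-box bound by Myc), each of which reads the same on both strands. CACGTG stood in the Ass1 window at position -36 from the start and in 1 of the 2 windows of Sms at position -196, and no other letters searched for were found in these 6 windows. Of all 32851 windows of this length in the table, 6.02% hold CACGTG, 5.85% hold the STAT6 letters and 7.02% hold TTCNNNGAA. A match of letters describes the window and not a bound site, and a window without one says nothing of the factor.

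By mean log ratio the order from the most negative was Arg1, Slc7a2, Ass1, Odc1, Oat, Sms, Arg2, Nos2, Srm and Sat1. The step from Arg1 to Slc7a2 was 2.33 ± 0.94 (SD of the within-mouse difference, n = 5) and had the same sign in 5 of 5 mice. That from Slc7a2 to Ass1 was 0.64 ± 0.53 and held in 4 of 5 mice, with mouse 1 the exception. Ass1 and Odc1 did not differ beyond their spread (0.18 ± 0.41), while Odc1 lay below Oat in 5 of 5 mice (0.13 ± 0.09). From Oat onward no neighbours in the order differed beyond the SD of their difference, with steps of 0.09 or less.

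**Figure D2:**
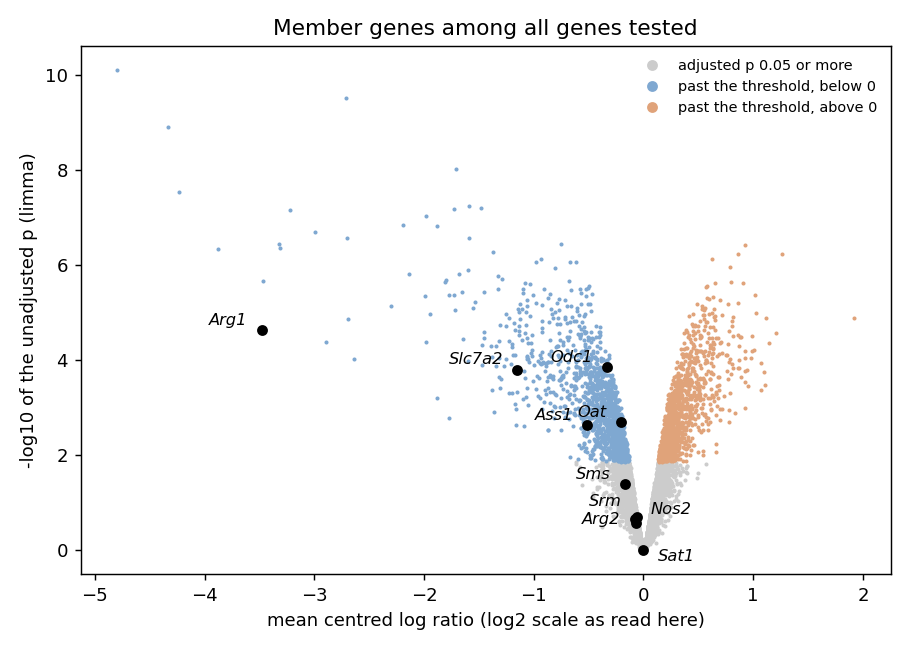
Mean centred log ratio over the ova mice (log2 scale, x axis) against -log10 of limma's unadjusted p (y axis) for all 9727 genes, coloured by side among those past the adjusted threshold, with the 10 genes as black points. Arg1 stands apart at -3.48, Slc7a2 at -1.15 lies in the tail of the negative side, and Ass1, Odc1 and Oat lie within the bulk of the genes that passed.

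The probes that stand near Arg1 in the numbering of the array were also examined, because probes 6, 18 or 24 numbers apart tended to share ratios on these arrays. The probe 6 numbers above that of Arg1, annotated to the growth factor gene Fgf22, had -0.96, -3.62, -2.73, -2.19 and -3.71 in mice 1 to 5, and the probe 24 above, annotated to the FK506-binding protein gene Fkbp5, had -0.56, -1.93, -0.99, -0.62 and -1.67. Mice 2 and 5 were the most negative for both, as for Arg1. They were also the most negative for Slc7a2 and for the Melk and Ccl11 probes given below, so this order was not particular to these distances. The 4 probes at 6, 12, 18 and 24 numbers below Arg1 had means between -0.09 and 0.04, so Arg1 itself had no strong probe at these distances below it. The probe 6 above Slc7a2 (Flg, the filaggrin gene) had a mean of -0.57 ± 0.17 (SD, n = 5). At other distances, the probe of Melk, a cell-division kinase gene, 2 below Slc7a2, had -1.12, -2.14, -1.96, -1.60 and -2.17. That of Ccl11, 7 above Slc7a2, had -0.312, -1.325, -0.962, -0.872 and -1.248. For Odc1, Ass1 and Oat the probes at 6 to 24 numbers on either side that had at least 4 values had means between -0.30 and 0.35. The lowest of these was the probe 6 above Odc1, annotated to Gjb2. It had -0.28, -0.39, -0.23, -0.16 and -0.43 in mice 1 to 5, and its mean of -0.30 was close to that of Odc1 (-0.33). For Nos2, the probe 18 numbers below had a mean of -1.31 and that of Nos2 -0.07. The part of shared signal between such probes in these ratios was not tested. Leaving out every probe 6, 12, 18 or 24 numbers from a strong probe of another gene removed Arg1 and Nos2 from the table, and each of the others keeps its own ratios in such a filter because it has 1 probe.

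**Figure D3:**
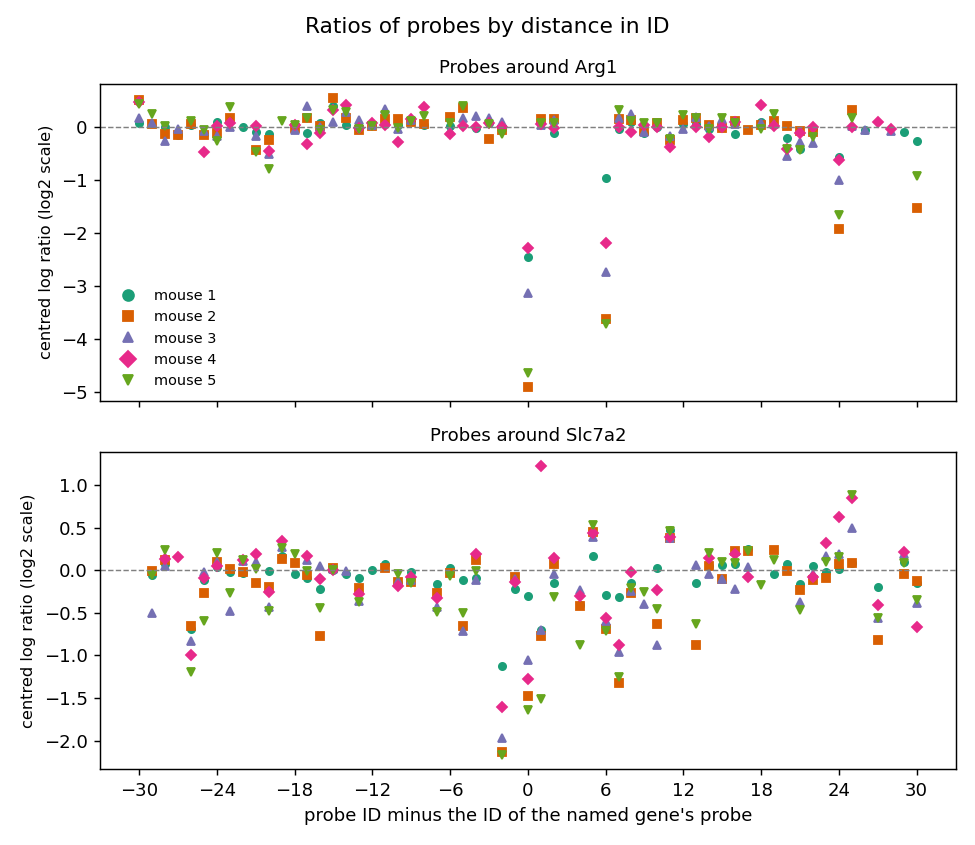
Centred log ratios (log2 scale, y axis) in each ova mouse for probes up to 30 numbers before and after the probes of Arg1 (top) and Slc7a2 (bottom), by difference in probe number (x axis). Near Arg1 the probes at 6 and 24 numbers above lie far below 0 and those at the same distances below lie near 0.

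The 41 other genes of arginine, proline, creatine and polyamine metabolism that were measured split between the sides. Below 0, 9 of them passed (21.95%), above 0, 8 passed, and the other 24 did not. Over all genes tested, 15.0% passed below 0 and 12.3% above. The median log ratio of the 41 genes was 0.03. Without moderation of the variances their counts were 0 below and 3 above 0, against 329 and 287 of all 9727 genes. For transport, 4 of 7 passed, all on the negative side: Slc6a14, an epithelial carrier of neutral and cationic amino acids (-0.43 ± 0.19), Slc7a7, a subunit of a cationic amino acid exchanger of macrophages and epithelium (-0.38 ± 0.18), the lysosomal arginine sensor gene Slc38a9 (-0.38 ± 0.35) and Slc7a9 (-0.27 ± 0.15, n = 4). Slc3a2, the heavy chain partner of several such exchangers, had 0.07 ± 0.39 with 2 mice below and 3 above 0. At an unadjusted p under 0.05, the counts for transport were 4 negative and 1 positive, the latter Slc3a1 (0.26 ± 0.19, n = 4, limma adjusted p = 0.0524), which passed with quantile normalization, with scaled arrays and without centring. At that unadjusted p, the counts over all 9727 genes were 2115 negative and 1781 positive.

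In the nitric oxide list the genes that passed were above 0, and most did not pass. Over all genes tested, 12.3% passed above 0 and 15.0% below. Below 0, 2115 of the 9727 genes had an unadjusted p under 0.05 and 329 passed without moderation. Of the 9 genes in this list, 3 passed with ratios above 0 and 0 with ratios below 0 in limma's test (0 below also at an unadjusted p under 0.05 and without moderation). They were Spr, sepiapterin reductase, which makes the cofactor of nitric oxide synthases (0.37 ± 0.13), and Ddah2 and Ddah1, which remove methylated arginines that inhibit those synthases (0.31 ± 0.12 and 0.15 ± 0.03). Without moderation Spr and Ddah2 did not pass (adjusted p = 0.0512 and 0.0526). Of the 6 that did not pass, Qdpr and Nosip had means below 0 (-0.03 each). Nos3, the endothelial synthase gene, had 0.09 ± 0.09 and Nos1, the neuronal one, 0.04 ± 0.07 (n = 4), neither past the threshold (limma adjusted p = 0.204 and 0.612). Endothelial marker genes, listed for comparison, passed above 0 in 6 of 7 cases and below 0 in 0, with list means between 0.25 and 0.81 in single mice; their part in these ratios was not tested.

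**Figure D4:**
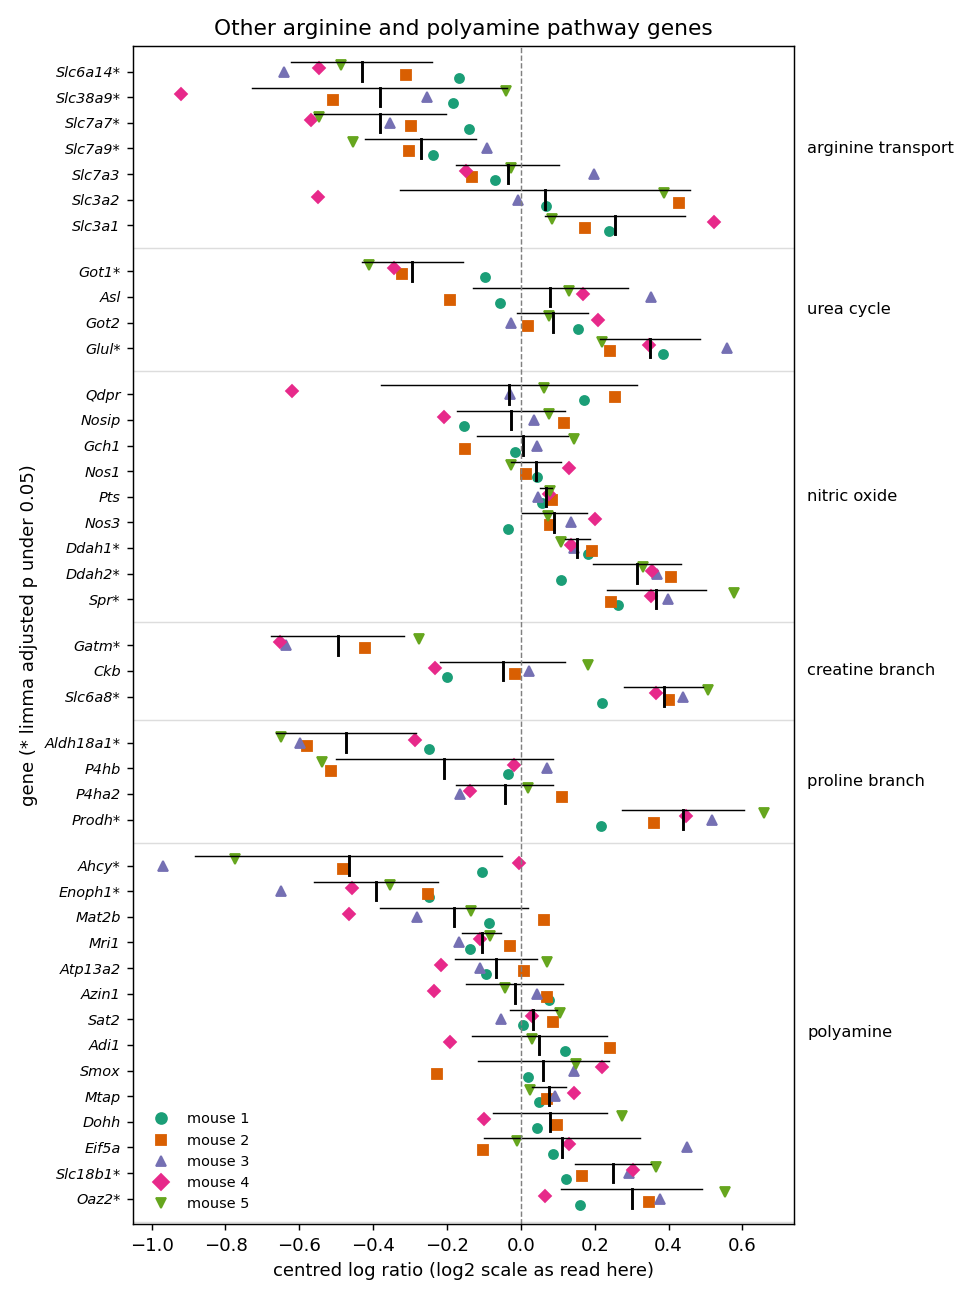
Centred log ratio (log2 scale, x axis) in each ova mouse for the 41 other pathway genes (y axis), grouped by list, with a vertical bar at the mean and a thin horizontal line for the mean ± SD; an asterisk marks limma adjusted p under 0.05. Transport genes that passed lie below 0, nitric oxide genes that passed lie above 0, and the proline, creatine, urea cycle and polyamine lists each hold both.

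The other branches each held genes on both sides. For proline, Aldh18a1, the synthase that starts proline and ornithine formation from glutamate, was negative (-0.47 ± 0.19) and Prodh, which breaks proline down, positive (0.44 ± 0.17), both in 5 of 5 mice. For creatine, Gatm, which transfers the amidino group of arginine to glycine, had -0.42, -0.64, -0.65 and -0.28 in mice 2 to 5, while the creatine carrier gene Slc6a8 had 0.22, 0.40, 0.44, 0.36 and 0.51 in mice 1 to 5. In the urea cycle list, Got1 was negative (-0.29 ± 0.14, n = 4) and the glutamine synthetase gene Glul positive (0.35 ± 0.14), and Asl, argininosuccinate lyase, the enzyme after Ass1, had 0.08 ± 0.21 and did not pass (limma adjusted p = 0.482).

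Among 14 other polyamine genes, 2 passed on each side. That is 14.3% on each side, near the shares over all genes tested (15.0% below and 12.3% above 0). Enoph1, of the methionine salvage route that recycles the by-product of polyamine synthesis (-0.39 ± 0.17), and Ahcy (-0.47 ± 0.42) were negative. Oaz2, an antizyme that holds ornithine decarboxylase down (0.30 ± 0.19), and the vesicular polyamine carrier gene Slc18b1 (0.25 ± 0.10) were positive. Azin1, the antizyme inhibitor (-0.02 ± 0.13), Smox, spermine oxidase (0.06 ± 0.18), and Eif5a, whose protein carries the spermidine-derived hypusine (0.11 ± 0.21), did not pass. Of the pathway genes that passed, Ahcy, Oaz2, Slc38a9, Slc7a9, Got1 and Ddah1 each lost the call in at least 3 of the 5 fits without 1 mouse.

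Of 14 measured regulators of Arg1, Nos2 or Odc1, 2 passed, while 27.3% of all genes tested passed in either direction. Klf4, a transcription factor of macrophages and endothelium, had 0.57, 1.05, 0.88, 1.06 and 1.00 in mice 1 to 5 (0.91 ± 0.20; limma adjusted p = 0.00055), and Hif1a, the hypoxia factor gene, had -0.16 ± 0.08 and lost the call without any 1 of mice 2 to 5. Stat6, which carries the interleukin-4 and interleukin-13 signal, had -0.27 ± 0.42 and Il13ra1 -0.03 ± 0.10. The cytokine genes themselves had values in mice 1, 2 and 5 only and were not tested. In these mice Il4 had 0.055, -0.715 and -0.524, and Il13 had -0.016, 0.075 and -0.217. Tnf had 0.05, -0.19, -0.44, -0.36 and -0.90 (limma adjusted p = 0.0531), and Ifng -0.03 ± 0.09. Myc, the known activator of Odc1, had 0.24 ± 0.31 with 4 of 5 mice above 0.

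Of 11 macrophage and monocyte markers measured, 6 passed below 0, the side of Arg1 and Slc7a2, 0 passed above and 5 did not pass, with a median of -0.46 and list means between -0.95 and -0.18 in single mice. C1qb was at -1.99 and Cd68 at -0.46, while Marco, of alveolar macrophages (-0.24), Msr1, Itgax, Itgam and Mertk did not pass. Of 9 markers of alternatively activated macrophages other than Arg1, 6 passed below 0 and 0 above, of 8 neutrophil markers 7 and 0, and of 5 eosinophil markers 3 and 1. Over all genes tested, 15.0% passed below 0 and 12.3% above. These counts are not separate, since Mrc1 and Cd163 stand in both macrophage lists. Retnla, of the alternatively activated list, and Rnase2a, of the eosinophil list, are also among the genes listed as induced in allergic airways. Below and above 0, the counts were 2 and 4 of 9 airway epithelial, 1 and 3 of 6 alveolar type II, 2 and 0 of 7 lymphocyte, 3 and 1 of 6 fibroblast and muscle, 1 and 0 of 2 erythrocyte, and 0 and 3 of 5 heart and fat markers. In whole lung, a different number of cells of a type and a different amount of RNA per cell cannot be told apart, and the part of these cells in the ratios of Arg1 and Slc7a2 was not tested.

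By the mean absolute difference in log ratio over the 5 mice, the genes most like Arg1 among 8041 measured on all arrays were Saa3 (0.50), Ccl8 (0.70), Fgf22 (0.83), Slc26a4 (0.84) and Muc5ac (0.85). These distances are as large as many genes' whole ratios, since few genes lie as far from 0, and Fgf22 is the probe 6 numbers above Arg1. The genes most like Slc7a2 were much closer: Dnmt3a (0.07), Shcbp1 (0.07), Ctsz (0.12), Car13 (0.13) and Serpina3n (0.14), whose means lay between -1.17 and -1.06.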

How the data were processed

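Lung RNA of 5 ova mice was compared with 1 control pool on 2-colour arrays. The deposited values are log ratios per probe, read here as log2 from their range; the authors' steps before deposit (scanner, background, within-array normalization) are not stated in the labels, and neither are the base and the numerator. Without spot brightness, a faint spot that has a value cannot be told from a bright one. Whether genes with ratios near 0 had faint spots is therefore not known. The number of arrays limits the precision. Symbols came from the platform annotation (14722 probes with 1 symbol), of which the GRCm38.p6 gene table changed 0. Arrays were centred on their medians, probes averaged per gene, and genes with at least 4 values tested against 0 with limma 3.58.1 in R 4.3.3 (lmFit, eBayes, two-sided, Benjamini-Hochberg over all genes, threshold 0.05); the pool counts as 1 sample. The labels number the ova mice as separate animals. The script was tested on simulated data. The genes, lists, motifs and naming rule (all 10 genes; in each list those past the threshold and the smallest p; the 5 nearest to Arg1 and Slc7a2) were chosen with earlier results of these data known. Other genes named as not past the threshold, and the probes near Arg1, Slc7a2 and Odc1, were chosen after their values were seen. The lists of regulators and response genes were counted apart from the 41 pathway genes. Alternatives were normalization, filter, probe summary, moderation, probe distance and each mouse left out.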

Additional observations from a re-analysis of the deposited data

Results flagged for a closer look

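Among 65 genes of these lists examined for 1 mouse standing apart from the others of its gene, 3 were found; chance gives about 1 in 20. For Nos2, mouse 5 at -0.31 lay apart from mice 1 to 4, which were between -0.07 and 0.01. For Ddah2, mouse 1 at 0.11 lay below the other 4, between 0.33 and 0.41. For Il10, whose protein is an anti-inflammatory cytokine, mouse 3 at 0.51 lay above the other 3 measured, between -0.07 and 0.00.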

How the results depend on the processing

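Over 17 alternatives, 162 of 166 refits of the 10 genes kept the same outcome, passed or not passed. Of the rest, 3 lost the call (Slc7a2 and Ass1 without moderation, Ass1 without mouse 4) and 1 gained it (Sms without mouse 3). Each gene has 1 probe, so filters and summaries of other probes leave its ratios as they are and say nothing of its stability. No call changed sign; Sat1, near 0, changed sign in 2. The adjusted p of Arg1 was at most 0.05 (0.04996, without moderation), and its mean between -3.78 and -3.12. Without moderation, 3 of the 10 genes passed on the negative side, 0 pathway genes on the negative and 3 on the positive side, and 329 and 287 genes in all, against 1463 and 1193. Leaving out each mouse gave 4 to 6 of the 10 genes, 5 to 8 pathway genes on the negative side (5 without mouse 2) and 6 to 7 on the positive side, and 928 to 1429 negative and 671 to 1124 positive genes in all (positive 789 without mouse 2, 735 without mouse 3 and 671 without mouse 5; negative 943 without mouse 3 and 928 without mouse 5). These fits have fewer mice. Leaving out probes 6, 12, 18 or 24 numbers from a strong probe of another gene removed Arg1, so its differences have no value there, and Nos2; 4 of the other genes passed. Slc7a2 minus Slc7a1 has no value where probes needed 4 arrays. No paired comparison of groups was possible because the series has 1 group. The base and direction of the ratio, and spot brightness, are unknown.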

Other observations

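The sharing of ratios between probes at fixed distances was not particular to Arg1. For 130 probes with a mean log ratio below -1, the probes of other genes at each distance up to 30 numbers were examined. At 6 numbers above, 19 of 108 such probes (17.6%) were below -0.5, and at 24 above 17 of 111 (15.3%). At 6 and 24 below, the shares were 11.0% and 13.6%, and at 12 numbers above 3.06%. At the 52 distances other than 6, 12, 18 and 24 on either side the median share was 5.26%, with a range from 0.99% to 13.6%. The highest of these was at 30 below (14 of 103), which is also a multiple of 6, and the next was 8.82% at 8 above. Neighbouring numbers share their place in the table; the sources used here do not give the layout of the slide. Fgf22, Fkbp5, Flg and Gjb2 are therefore given above by their probe's number as well as by their name.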
